A study of Mus musculus with 19 samples.

Results

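The miR-146a circuit was followed here through 9 genes: Irak1, Traf6, Irak2 and Relb, which are known targets of miR-146a, and their partners Irak4, Nfkb1, Rela, Nfkbia and Tnfaip3. The genes were taken by symbol, as 9 of the 48709 genes in the count files, and all 9 passed the low-count filter that 19297 genes passed. RNA of the hippocampal CA1 region was sequenced in 19 libraries, each from a different mouse aged 7 months. The mice of WT control (n = 6) were wild-type littermates given a control oligonucleotide, those of APP control (n = 6) were APPPS1-21 mice given the same control oligonucleotide, and those of APP anti-miR-mix (n = 7) were APPPS1-21 mice given inhibitors of miR-146a-5p, miR-181a-5p and miR-148a-3p together, called the mix group from here on. All oligonucleotides were delivered in lipid nanoparticles into the dorsal hippocampus. APPPS1-21 mice express mutant human transgenes, among them APP with the Swedish mutation, from Thy1 regulatory sequence, which is active in neurons, and their brains accumulate amyloid. In their titles the wild-type libraries carry the name of the mix next to the word control, and the description of these mice as given the control oligonucleotide comes from the study. Because miR-146a-5p was inhibited together with the other two microRNAs, an effect of its inhibition alone cannot be told apart here.

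Toll-like receptors and the interleukin receptors related to them recruit the adaptor MyD88 and the kinase IRAK4, which passes the signal to IRAK1 and IRAK2 and on to TRAF6, a ubiquitin ligase. TRAF6 activates the kinases that mark the inhibitor IkB-alpha, the product of Nfkbia, for destruction, and NF-kB dimers such as RelA with p50 (made from Nfkb1) then enter the nucleus. NF-kB raises the transcription of inflammatory genes and also of its own brakes, among them Nfkbia, the ubiquitin-editing enzyme A20 encoded by Tnfaip3, and the primary transcript of miR-146a. Mature miR-146a pairs with the mRNAs of Irak1 and Traf6 and lowers their output, which closes a negative feedback loop known best from myeloid cells. In the brain microglia are the main myeloid cells, and neurons and astrocytes also express parts of this pathway.

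The sequences that carry the question are the microRNA, its close relative, its inhibitor and the control, written 5′ to 3′ with capitals for the seed (bases 2 to 8) in the microRNAs and for the bases opposite it in the inhibitor. The microRNAs are from RefSeq on GRCm38.p6 and the oligonucleotides are the study's designs.
mmu-miR-146a-5p: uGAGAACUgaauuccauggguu
mmu-miR-146b-5p: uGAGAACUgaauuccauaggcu
inhibitor of miR-146a-5p: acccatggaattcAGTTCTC
control oligonucleotide: taacacgtctatacgccca
The mature miR-146a-5p lies at chr11:43374435-43374456 on the minus strand and miR-146b-5p, which has the same seed, at chr19:46342790-46342811 on the plus strand. The inhibitor is complementary to bases 2 to 21 of miR-146a-5p and has 2 mismatches over those 20 bases against miR-146b-5p. These libraries hold polyadenylated RNA and do not measure mature microRNAs. The hairpin gene Mir146 had a total of 2 counts over all libraries (1 in each of 2 libraries) and Mir146b had 1 count, so neither says anything about the level of the microRNA. Mir146b lies inside Mfsd13a on the same strand, and Mfsd13a had 811 ± 61.3 normalized counts for WT control, 868 ± 102 for APP control and 788 ± 69.1 for the mix group (mean ± SD).

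Matches to the miR-146a-5p seed were counted on the sense strand of the longest annotated 3′ UTR of each gene (GENCODE M21, GRCm38). The letters searched were AGTTCTCA (8mer), AGTTCTC without that A (7mer-m8) and GTTCTCA not preceded by A (7mer-A1). Irak1, Traf6 and Irak2 held 3, 4 and 3 matches, and the other 6 genes held none, Relb among them although it is a known target. A match was present in 20.351% of the 15385 tested genes with an annotated 3′ UTR and an 8mer in 4.491%. Among genes with a 3′ UTR within 20% of the same length the share with a match was 20.334% for Irak1, 49.68% for Traf6 and 16.295% for Irak2. The 3′ UTR of Relb was 336 bases long, and 4.709% of the UTRs of that length held a match. The following windows of 28 bases, with the match in capitals, show the closest pair in Irak1, the first pair in Traf6 and the strongest pair of matches in Irak2.
Irak1 8mer, chrX:74015393-74015420, minus strand: ccctcagactcagaggtcaaAGTTCTCA
Irak1 8mer, chrX:74015377-74015404, minus strand: tcaaagttctcatgcttggaAGTTCTCA
Traf6 8mer, chr2:101697939-101697966, plus strand: aagttaccgctctggtgttgAGTTCTCA
Traf6 8mer, chr2:101698003-101698030, plus strand: catgatccctggaaggcttaAGTTCTCA
Irak2 7mer-m8, chr6:113694113-113694140, plus strand: ctgttgcccccaaacctcttAGTTCTCc
Irak2 8mer, chr6:113694246-113694273, plus strand: ctacagccggtgtctccgcaAGTTCTCA
The Irak1 8mers began 16 bases apart, at bases 40 and 56 of a UTR of 1526 bases, and the first Traf6 8mers 64 bases apart, at bases 460 and 524 of a UTR of 4170 bases. All 4 matches in Traf6 were 8mers, the last of them at base 3860. Traf6 also held 2 matches to the seed of miR-181a-5p and Rela held 1 to that of miR-148a-3p, and no other gene of the 9 held a match to these seeds of the mix. A match is a feature of the sequence and was not measured as a bound site.

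**Figure D1:**
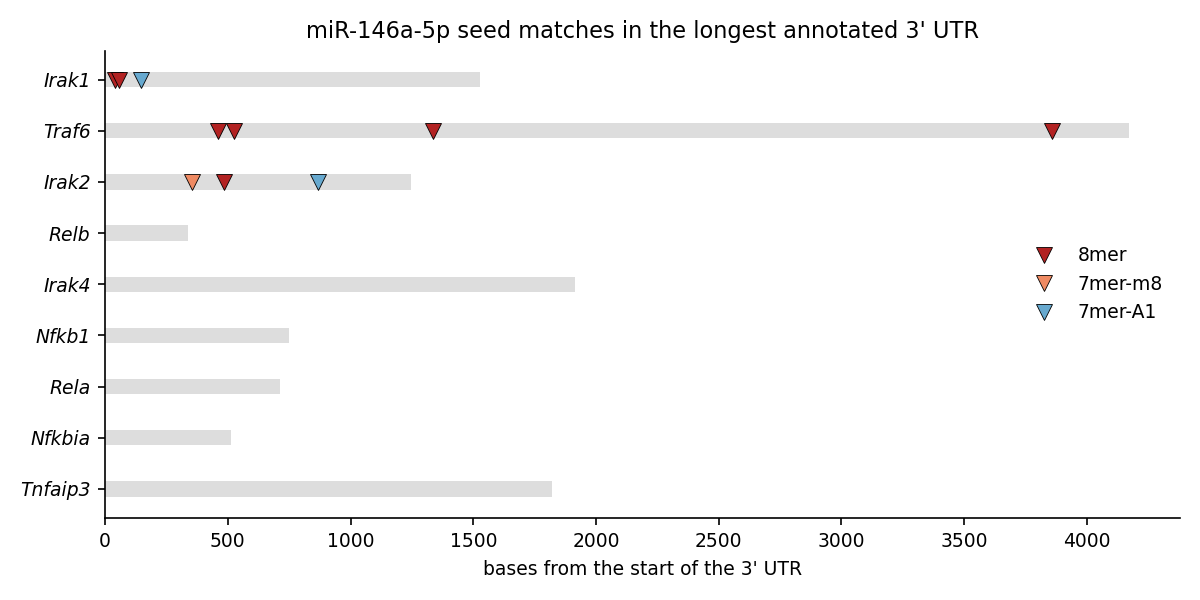
Position of miR-146a-5p seed matches (triangles, coloured by type) in the longest annotated 3′ UTR (grey bars) of the 9 circuit genes, with the distance from the start of the UTR in bases on the horizontal axis. Irak1 held 3 matches near its start, Traf6 held 4 spread over 4170 bases, Irak2 held 3, and the other 6 genes held none.

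Total counts per library ranged from 19362343 to 37018917. The CA1 marker Wfs1 had at least 2748 normalized counts in every library and Fibcd1 at least 2623, and dentate gyrus markers were also present (Prox1, 613 to 1737). Mouse Thy1 and App, genes related to the transgenes, were higher in every APPPS1-21 library than in every WT control library, in keeping with the genotype labels. The summed level of 10 microglial markers was 14590 to 23650 normalized counts for WT control, 23560 to 48240 for APP control and 29720 to 47210 for the mix group. WT control libraries 1 and 5 stood apart from the other 4 WT control libraries (23650 and 22470 against 14590 to 17270), and APP control libraries 5 and 6 from the other 4 of their group (23560 and 25660 against 38370 to 48240). The labels do not say how replicates were processed together, and p-values measure the spread between these mice.

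The levels of the 9 genes can be compared with each other only per length. Per kb of merged exon and averaged over the 19 libraries, Irak1 had the highest level at 455 ± 23.1 normalized counts (SD), which placed it at the 83.8th percentile of tested genes. Nfkbia followed at 402 ± 66.1 and Rela at 276 ± 24.7, and the ranges of neighbours in this order overlapped. A gap that no library crossed separated Rela from Irak2 (109 ± 10.4), Traf6 (100.4 ± 6.71), Relb (86.2 ± 12.3), Nfkb1 (65.3 ± 6.96) and Tnfaip3 (47.3 ± 7.65), each of which overlapped the next. Irak4 was the lowest at 20.4 ± 4.42, the 25.9th percentile, and overlapped none of the others. The apical kinase of the pathway was the member with the fewest reads, 48 to 161 raw counts a library, and had the largest standard error of the 9 in each comparison.

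Of the 9 genes, Nfkb1 was called as raised in APP control over WT control, and Nfkb1 and Irak4 were called higher in the mix group than in WT control (DESeq2, adjusted p under 0.05). None was called between the mix group and APP control, which differ by label in the oligonucleotides given. Among all genes the calls were 5.0% of 18161 in APP control against WT control, 0.0% of 19284 in the mix group against APP control and 9.51% of 18161 in the mix group against WT control, beside 1, 0 and 2 of the 9 genes. With edgeR and with limma on the deposited log2 table the number of all genes called for the inhibitors was also 0, and at an unadjusted p under 0.05 DESeq2 found 3, 0 and 5 of the 9 genes in the 3 comparisons, beside 13.7%, 2.86% and 19.4% of 19284 genes. The median log2 fold change of the 9 genes was 0.12, -0.010 and 0.085 in the 3 comparisons, beside medians of -0.012, -0.0015 and -0.015 over all genes. APP control is shared by 2 of the comparisons, as is each other group, so they are not independent of each other. In every comparison the groups overlapped for each of the 9 genes.

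**Figure D2:**
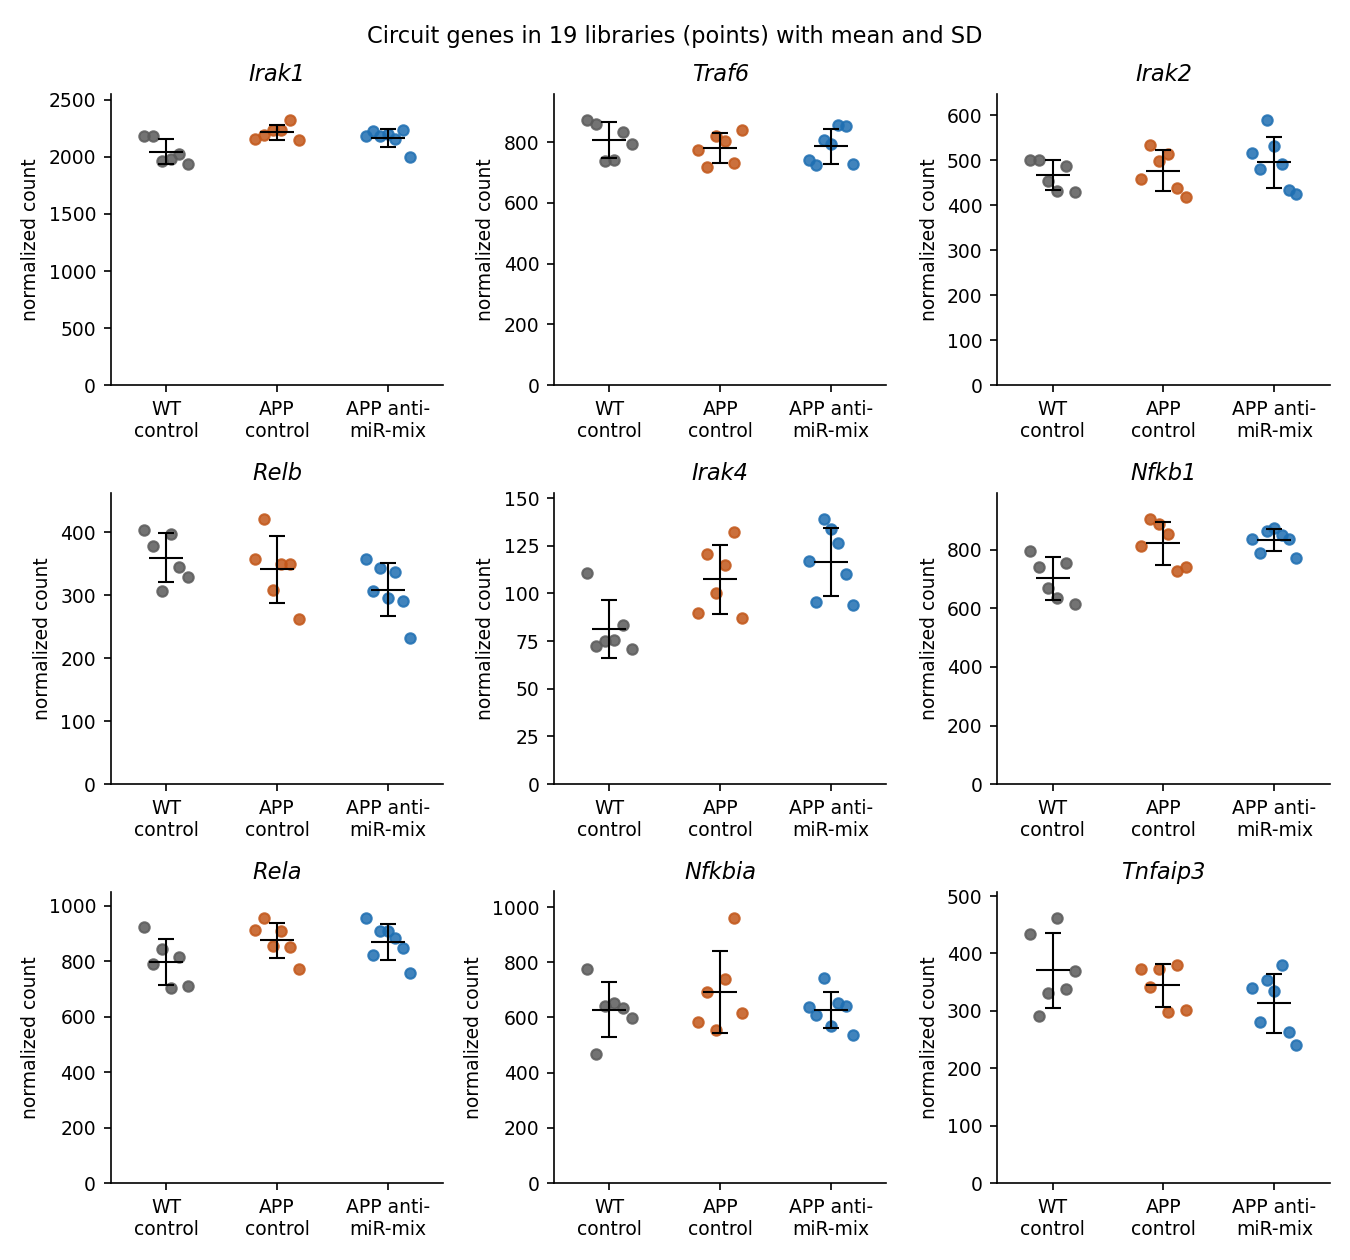
Normalized count of each circuit gene (vertical axis, from 0) in the 19 libraries, 1 point per library in order of replicate number, with the mean (bar) and SD (whiskers) of each group. The means of Nfkb1 and Irak4 are higher in both APPPS1-21 groups than in WT control, with overlap of single libraries, and APP control and the mix group overlap in all 9 panels.

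Irak1 (ENSMUSG00000031392, chromosome X, 74013914 to 74023918, minus strand) encodes the kinase that miR-146a is best known to repress. Its normalized count had a lowest, median and highest value of 1938, 2000.0 and 2182 in WT control, 2148, 2212 and 2323 in APP control, and 2000.0, 2185 and 2234 in the mix group. Libraries 1 and 2 of WT control lay among the APPPS1-21 libraries and library 7 of the mix group among the wild type. The log2 fold change of APP control over WT control was 0.12 (SE 0.040, DESeq2 adjusted p = 0.0666), and of the mix group over WT control 0.086 (SE 0.039, adjusted p = 0.163). Neither passed the test, and the exact permutation p of these 2 differences, two-sided and unadjusted, was 0.0173 and 0.0344. The first was called without any 1 of WT control library 1, WT control library 2, APP control library 6 and mix library 7, with adjusted p from 0.0165 to 0.0483, and in the deposited log2 table (adjusted p = 0.0275). It was also called without WT control libraries 1 and 5 together (adjusted p = 0.0344), a choice made after the data were seen. The second was called without mix library 7 (adjusted p = 0.0487) and in the deposited table (adjusted p = 0.0474). Between the mix group and APP control the log2 fold change was -0.031 (SE 0.039, adjusted p = 1.0), with a 95% interval of -7.14% to 3.13%. Irak1 contains the microRNA genes Mir718 and Mir5132 in its exons on the same strand.

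Traf6 (ENSMUSG00000027164, chromosome 2, 101678429 to 101701669, plus strand) encodes the ubiquitin ligase, and its 3′ UTR held 4 8mers. The lowest, median and highest normalized counts were 738, 814 and 873 in WT control, 719, 789 and 839 in APP control, and 725, 794 and 858 in the mix group. The 3 groups covered nearly the same range. The mix group differed from APP control by a log2 fold change of 0.0091 (SE 0.061, adjusted p = 1.0), with a 95% interval of -7.43% to 9.4%. Set against WT control, log2 fold changes were -0.045 for APP control (adjusted p = 0.891) and -0.035 for the mix group (adjusted p = 0.842), and the sign of both turned without WT control libraries 1 and 5.

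Irak2 (ENSMUSG00000060477, chromosome 6, 113638467 to 113695026, plus strand) encodes the kinase that sustains the late phase of the response. Its lowest, median and highest normalized counts were 429.6, 471 and 502 in WT control, 419.5, 479 and 533 in APP control, and 425, 492 and 589.8 in the mix group. The highest library was replicate 3 of the mix group, and the lower ends of the 3 groups were alike. The log2 fold change of the mix group over APP control was 0.055 (SE 0.082, adjusted p = 1.0), with a 95% interval of -7.01% to 16.1%. It was 0.029 for APP control (adjusted p = 0.959) and 0.085 for the mix group (adjusted p = 0.659) against WT control. Irak2 shares exonic bases with an antisense gene of uncertain status, Gm43963, and whether the counting used strand was not stated.

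Relb (ENSMUSG00000002983, chromosome 7, 19606217 to 19629438, minus strand) encodes the NF-kB subunit of the non-canonical pathway. The lowest, median and highest normalized counts were 306, 361 and 403 in WT control, 262, 349 and 421 in APP control, and 232, 307 and 357 in the mix group. The medians descended in that order with wide overlap. Its log2 fold change was -0.14 with the inhibitors (SE 0.11, adjusted p = 1.0), with a 95% interval of -22.1% to 5.34%, and -0.079 (adjusted p = 0.893) and -0.22 (adjusted p = 0.234) for APP control and the mix group against WT control. The last had an unadjusted p of 0.0464. For these 4 targets a rise with the inhibitors of more than 3.13% for Irak1, 9.4% for Traf6, 16.1% for Irak2 or 5.34% for Relb lay outside the 95% interval of the main fit. The log2 fold change of Irak1 ranged from -0.040 to -0.012 without single libraries. These intervals are of bulk CA1 RNA, and a change confined to some of its cells was not measured.

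**Figure D3:**
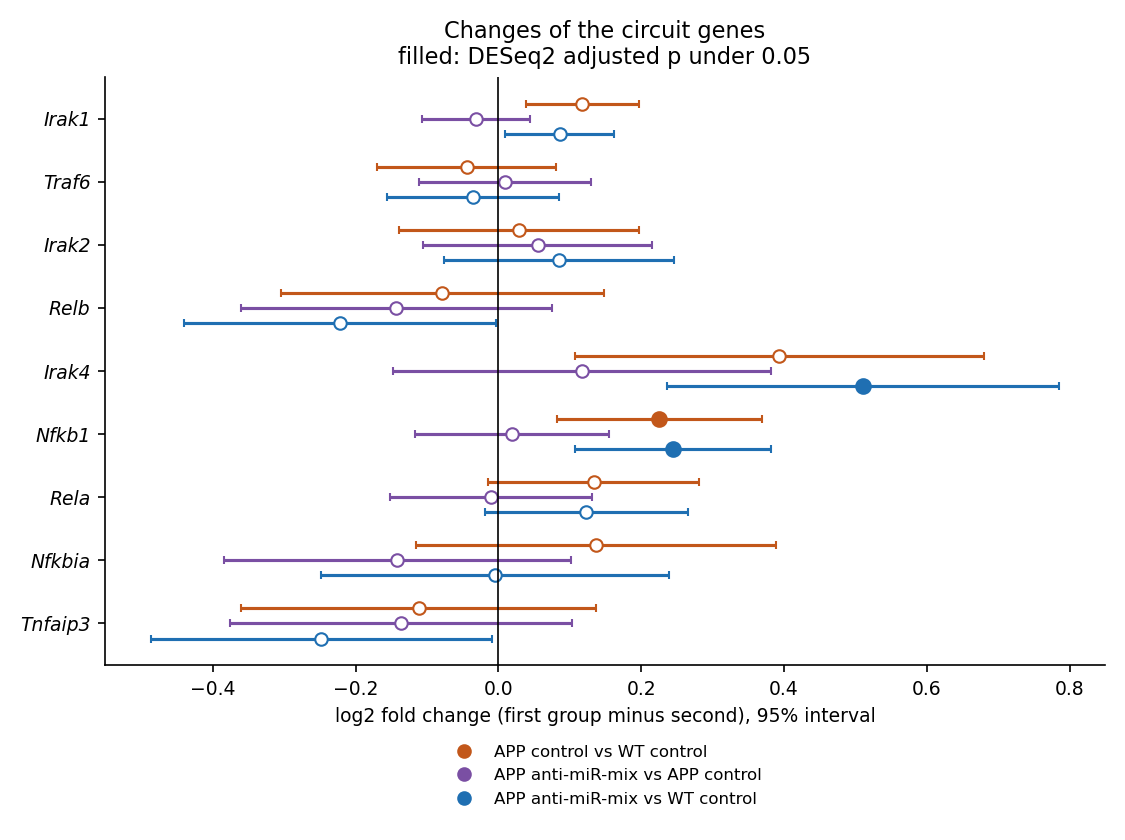
Log2 fold change (horizontal axis) of each circuit gene in APP control against WT control (orange), the mix group against APP control (purple) and the mix group against WT control (blue), with 95% intervals and filled points where the DESeq2 adjusted p was under 0.05. The only filled points are Nfkb1 at 0.23 and 0.24 and Irak4 at 0.51, all against WT control, and each purple interval includes 0.

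Irak4 (ENSMUSG00000059883, chromosome 15, 94543643 to 94581815, plus strand) encodes the kinase that acts upstream of IRAK1 and IRAK2. The 6 WT control libraries had 111, 72.5, 75.1, 75.5, 83.3 and 70.8 normalized counts, the APP control libraries 87.0 to 132 with a median of 108, and the mix libraries 93.8 to 139 with a median of 117. Only WT control library 1 reached into the APPPS1-21 ranges. The mix group was higher than WT control by a log2 fold change of 0.51 (SE 0.14, adjusted p = 0.00576 with DESeq2 and 0.0222 with edgeR), an increase of 42.5%, with an exact permutation p of 0.00583 (unadjusted). This call was made in all 8 alternative analyses and without any single library, with adjusted p of at most 0.0352. APP control over WT control had a log2 fold change of 0.39 (SE 0.15) and did not pass the test (adjusted p = 0.104), but was called without WT control library 1 (adjusted p = 0.0114) and without APP control library 6 (adjusted p = 0.0441). It was also called without WT control libraries 1 and 5 together (adjusted p = 0.0132), which were the highest of WT control for Irak4 and were left out after the data were seen. The mix group over APP control was 0.12 (SE 0.14, adjusted p = 1.0), with a 95% interval of -9.72% to 30.4%. Irak4 shares exonic bases with Twf1, a gene on the opposite strand, and reads from these bases cannot be assigned if counting ignored strand.

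Nfkb1 (ENSMUSG00000028163, chromosome 3, 135584655 to 135691547, minus strand) encodes p105, the precursor of the p50 subunit. The lowest, median and highest normalized counts were 614, 706 and 796 in WT control, 727, 832 and 904 in APP control, and 773, 837 and 874 in the mix group. WT control libraries 1, 2 and 5 (796, 742 and 755) and APP control libraries 5 and 6 (727 and 742) made the overlap. APP control exceeded WT control by a log2 fold change of 0.23 (SE 0.073, DESeq2 adjusted p = 0.0431, exact permutation p = 0.026 unadjusted), an increase of 16.9%. This call stood near the threshold. It was lost with edgeR (adjusted p = 0.0868), in a fit of the 2 groups by themselves (0.153) and with the adjustment number of the deposited table as a factor (0.104). It was also lost without any 1 of WT control libraries 3, 4 and 6, APP control libraries 1 to 4 and mix libraries 1 and 3 to 6, with adjusted p from 0.0533 to 0.156 and log2 fold changes from 0.19 to 0.23. It was kept without WT control libraries 1 and 5 (log2 fold change 0.31, adjusted p = 0.00173). These libraries were the highest of WT control for Nfkb1 and were left out after the data were seen, so that fit is no independent check. The mix group exceeded WT control by a log2 fold change of 0.24 (SE 0.070, adjusted p = 0.00926, exact permutation p = 0.00233 unadjusted), an increase of 18.5%, and this call was made in all 8 alternatives and without any single library (adjusted p of at most 0.0464). The mix group and APP control differed by 0.019 (SE 0.069, adjusted p = 1.0), with a 95% interval of -7.78% to 11.4%.

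Rela (ENSMUSG00000024927, chromosome 19, 5637483 to 5648130, plus strand) encodes the main activating subunit of canonical NF-kB. It had 798 ± 83.8 normalized counts for WT control, 875 ± 64.0 for APP control and 869 ± 65.1 for the mix group (mean ± SD), with ranges of 703 to 923, 771 to 954 and 758 to 956. Log2 fold changes over WT control were 0.13 (SE 0.075, adjusted p = 0.436) and 0.12 (SE 0.073, adjusted p = 0.352), and neither passed the test. With the inhibitors the difference was -0.010 (SE 0.072, adjusted p = 1.0), within -9.97% to 9.51%.

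The inhibitors of the pathway, Nfkbia (ENSMUSG00000021025, chromosome 12, 55489410 to 55492647, minus strand) and Tnfaip3 (ENSMUSG00000019850, chromosome 10, 19000910 to 19015657, minus strand), varied widely between mice of a group. The range of Nfkbia was 467 to 777 normalized counts in WT control, then 554 to 960.3 in APP control, and 535 to 743 in the mix group, and its coefficient of variation was 15.9%, 21.6% and 10.6%. The highest value belonged to APP control library 5. That library also had the highest summed blood markers, 5454 normalized counts against at most 1012 in WT control and 2178 in the mix group. Their part in the value was not tested. The log2 fold change of Nfkbia was 0.14 in APP control (SE 0.13, adjusted p = 0.766) and -0.0048 in the mix group (SE 0.12, adjusted p = 0.992) against WT control, the latter of a sign that turned with TMM scaling, and -0.14 between the APPPS1-21 groups (SE 0.12, adjusted p = 1.0, 95% interval -23.4% to 7.26%). Tnfaip3 had 371 ± 65.2, 344.5 ± 37.1 and 313 ± 51.8 normalized counts in WT control, APP control and the mix group. Its log2 fold change was -0.11 in APP control (SE 0.13, adjusted p = 0.831) and -0.25 in the mix group (SE 0.12, adjusted p = 0.219) against WT control, and -0.14 with the inhibitors (SE 0.12, adjusted p = 1.0, 95% interval -22.9% to 7.41%). None of these differences passed the test.

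The promoter windows of RefSeq (250 bases before to 50 after a start, GRCm38) were searched on both strands for the kB consensus by name, since NF-kB is known to drive its own inhibitors. Windows were at hand for 7 of the 9 genes, all but Relb and Nfkb1. The consensus was found in windows of Irak1, Nfkbia and Tnfaip3, and in 8.459% of all 32851 windows or 9.55% of their 27025 genes. The Nfkbia match, GGAAATTCCC, lies from 29 to 20 bases before the start. Windows of Traf6, Irak2, Irak4 and Rela held none. Binding was not measured.

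Microglial markers differed between the groups in the same direction as Nfkb1 and Irak4. Of the 10 microglial markers, 8 were called higher in APP control and 9 in the mix group than in WT control, with a median log2 fold change of 0.91 and 0.94, and 0 of 10 were called between the APPPS1-21 groups (median 0.033). Of 8 markers of amyloid-responding microglia all 8 were called in both comparisons against WT control and 0 between the APPPS1-21 groups. Astrocyte markers had 1 of 8 called higher in each comparison against WT control, endothelial markers 2 and 3 of 5, and neuronal markers 2 and 1 of 8 lower, with 0 called between the APPPS1-21 groups in each list. No oligodendrocyte, blood, choroid plexus, CA1 or dentate gyrus marker was called in any comparison, although 2 of the 3 CA1 markers had an unadjusted p under 0.05 between the APPPS1-21 groups (log2 fold changes from -0.55 to 0.58). Folr1 of the choroid plexus list was near 0 (median of 3.43 normalized counts). In bulk tissue, more cells of a type and more RNA per cell cannot be told apart. The part of the microglial RNA in the changes of Nfkb1 and Irak4 was not tested.

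After the group means were subtracted, Nfkb1 still followed the summed microglial markers over the 19 libraries (Pearson r = 0.835, permutation p = 3e-05, adjusted p = 0.00144 over 72 relations of 9 genes with 8 marker lists, Spearman rho = 0.83, permutation p = 5e-05, adjusted p = 0.0036). Without the 2 libraries farthest from the median of the markers r was 0.777. Irak2 (r = 0.688, permutation p = 0.00113, adjusted p = 0.0144, Spearman rho = 0.711, permutation p = 0.00082, adjusted p = 0.013) and Rela (r = 0.673, permutation p = 0.00168, adjusted p = 0.0151, Spearman rho = 0.672, permutation p = 0.00191, adjusted p = 0.02) followed them as well, with r of 0.624 and 0.667 without those 2 libraries. Irak1 (r = 0.204, adjusted permutation p = 0.602) and Nfkbia (r = 0.0247, adjusted permutation p = 0.934) did not pass the test, nor did Irak4 (r = 0.5, adjusted permutation p = 0.128, Spearman rho = 0.575, adjusted permutation p = 0.0604), for which r was 0.769 without those 2 libraries. Traf6 was related to the summed oligodendrocyte markers (r = 0.718, permutation p = 0.00078, adjusted p = 0.014, Spearman rho = 0.679, permutation p = 0.00194, adjusted p = 0.02, and r = 0.678 without the 2 farthest libraries). With the markers of amyloid-responding microglia Nfkb1 (r = 0.779, adjusted permutation p = 0.00144), Irak2 (r = 0.642, adjusted permutation p = 0.0218) and Rela (r = 0.606, adjusted permutation p = 0.0364) passed the test. Nfkb1 also passed it with the astrocyte (r = 0.713, adjusted permutation p = 0.014), oligodendrocyte (r = 0.686, adjusted permutation p = 0.0151) and neuronal lists (r = -0.65, adjusted permutation p = 0.0218), and Rela with the neuronal list (r = -0.69, adjusted permutation p = 0.0144). The lists share libraries and scaling, so these relations are not independent of each other.

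**Figure D4:**
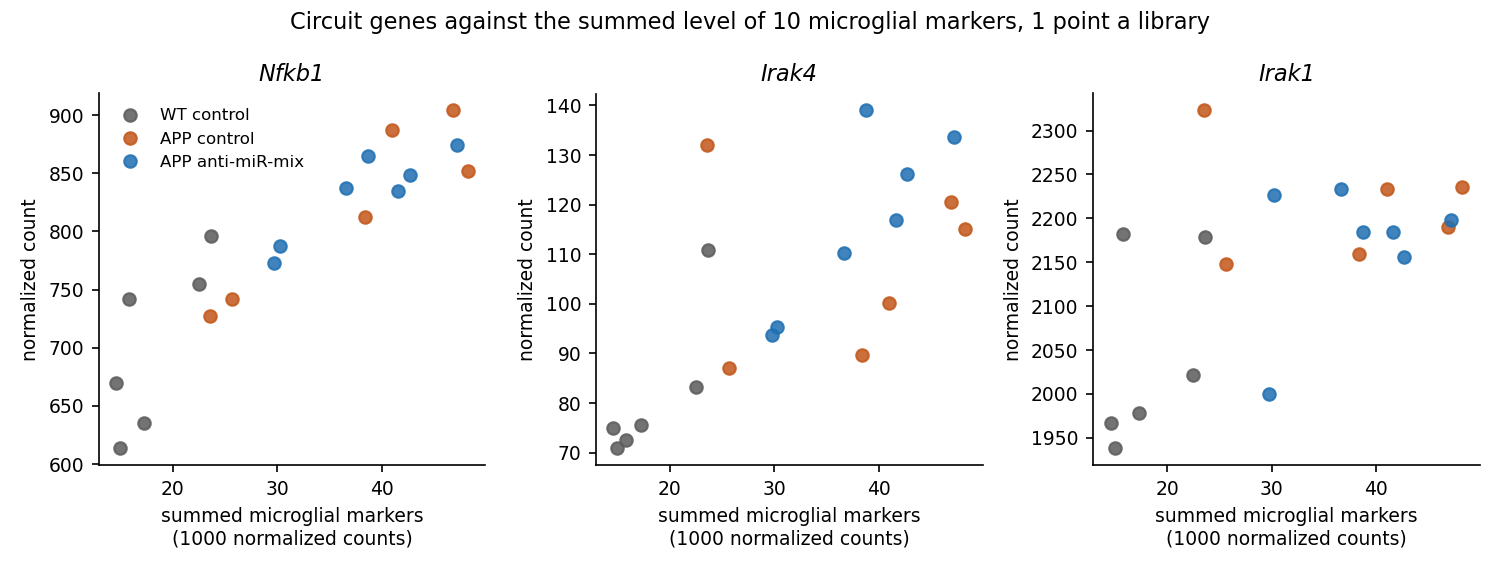
Normalized counts of Nfkb1, Irak4 and Irak1 (vertical axes, not from 0) against the summed normalized count of 10 microglial markers (horizontal axes), 1 point per library coloured by group. Nfkb1 rises with the markers across and within groups, and APP control libraries 5 and 6 lie beside WT control libraries 1 and 5 in the Nfkb1 panel.

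Of the 36 pairs of the 9 genes, 32 had a positive correlation over the 19 libraries after the group means were subtracted (median r = 0.453, range -0.117 to 0.779), and 10 passed an adjusted permutation p of 0.05 while 26 did not. The shares of positive and of passing pairs among other genes were not computed. The closest pair was Irak2 with Nfkb1 (r = 0.779, permutation p = 0.00015, adjusted p = 0.00372, Spearman rho = 0.774, permutation p = 0.00016, adjusted p = 0.00576, and r = 0.826 without the 2 farthest libraries), followed by Nfkb1 with Rela (r = 0.758, permutation p = 0.00024, adjusted p = 0.00372, Spearman rho = 0.654, permutation p = 0.00292, adjusted p = 0.0263, and r = 0.754 without 2). Among the other pairs that passed, r went from 0.612 to 0.364 for Relb with Rela, from 0.59 to 0.418 for Relb with Irak4 and from 0.58 to 0.406 for Relb with Tnfaip3 without the 2 farthest. None of the 8 pairs of Traf6 passed, and their r ranged from -0.117 with Nfkbia to 0.457 with Nfkb1. Among 14091 genes with a mean of at least 50 normalized counts, those most like each target in this measure were Lbr, Esam and H2-K2 for Irak1 (r = 0.883, 0.856 and 0.839), Txndc16, Pex7 and Prkd3 for Traf6 (0.885, 0.859 and 0.855), Dusp7, Sipa1 and Wdr5 for Irak2 (0.863, 0.863 and 0.86), and Cotl1, Coro1c and Nadk for Relb (0.895, 0.887 and 0.88). These are the highest of many correlations and carry no test.

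The rest of the pathway was read from 44 further genes in 5 lists. Of these, 6 were called higher and 0 lower when APP control was set against WT control, beside 3.89% of all genes called higher and 1.11% lower, and 6 higher and 0 lower in the mix group than in WT control, beside 5.94% and 3.57%. With the inhibitors 0 of 44 were called, beside 0 of all genes. The median log2 fold change was 0.064 in APP control and 0.034 in the mix group against WT control, and -0.012 between the APPPS1-21 groups, beside -0.012, -0.015 and -0.0015 over all genes.

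The calls lay in 2 of the 5 lists. Of 10 receptors and adaptors, 4 were called in each comparison against WT control, the nucleic acid receptor Tlr7 first. Tlr7 had 126 ± 29.2 normalized counts for WT control, 332 ± 61.6 for APP control and 369 ± 105 for the mix group, and the log2 fold change, 1.39 in APP control (SE 0.19, adjusted p = 3.44e-10) and 1.54 in the mix group (SE 0.19, adjusted p = 1e-13), was called in all alternatives and without any single library. The interleukin receptor gene Il1r1 rose from 147 ± 60.6 to 281.5 ± 93.2 in APP control (log2 fold change 0.93, SE 0.24, adjusted p = 0.00435), while it averaged 220.5 ± 58.7 in the mix group (0.58, adjusted p = 0.102 against WT control). The difference between the APPPS1-21 groups was not called for it. Ticam1, the adaptor TRIF, had log2 fold changes of 0.35 (adjusted p = 0.0258) and 0.33 (adjusted p = 0.019) against WT control. The first was lost with edgeR, in the fit of 2 groups and without any 1 of WT control libraries 3, 4 and 6 and APP control libraries 1, 2 and 4 (adjusted p up to 0.113), and the second without WT control library 4 or 6 (up to 0.0689). Irak3, the member of the IRAK family that restrains signalling, was called in the mix group (64.0 ± 11.7 against 47.6 ± 5.77 normalized counts in WT control, log2 fold change 0.44, adjusted p = 0.0367), and this was lost in 3 of 8 alternatives and without any 1 of WT control libraries 3 to 6 and mix libraries 1, 2, 3, 5 and 6 (adjusted p up to 0.124). Tlr2, named after its values were seen, was called with log2 fold changes of 0.84 (adjusted p = 0.0434) and 0.77 (adjusted p = 0.0405), which were kept without 7 and 8 of the 19 single libraries. Both were lost with edgeR and with the adjustment number as a factor, and the second also in the fit of 2 groups (adjusted p at most 0.179 and 0.146 over all of these and the left-out libraries).

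In 3 of the 5 lists no gene was called. Of 11 kinases and ubiquitin enzymes (the TAK1 and IKK complexes, the TRAF6 partner Ube2n, Traf2 and Traf3), 0 were called in any comparison, with log2 fold changes against WT control of -0.051 to 0.029 in APP control and of -0.094 to 0.040 in the mix group. Of the 6 other subunits and inhibitors of NF-kB and the 4 enzymes and cofactors that limit it, 0 were called. At the output end, 2 of 13 genes known to be induced by NF-kB were called in each comparison against WT control, both of them chemokines. Some of the others had few reads, such as Il6 (1 to 9 raw counts a library, adjusted p undefined against WT control) and Tnf (4 to 27). For these the lack of a call says little. With the inhibitors 1 of the 13 had an unadjusted p under 0.05, Ptgs2 (log2 fold change -0.62, DESeq2 unadjusted p = 0.00285), and it was not called. Ccl3 averaged 27.9 normalized counts in WT control, against 231.5 in APP control and 269 in the mix group (log2 fold changes 3.04, SE 0.43, adjusted p = 8.57e-10, and 3.26, SE 0.42, adjusted p = 2.55e-12). Ccl4 had 28.1, 101.1 and 127 (log2 fold changes 1.82, adjusted p = 6.02e-07, and 2.16, adjusted p = 1.51e-10). Both were called in all alternatives and without any single library. These chemokines are made by microglia, whose markers moved with them as given above, and the part of that RNA was not tested.

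**Figure D5:**
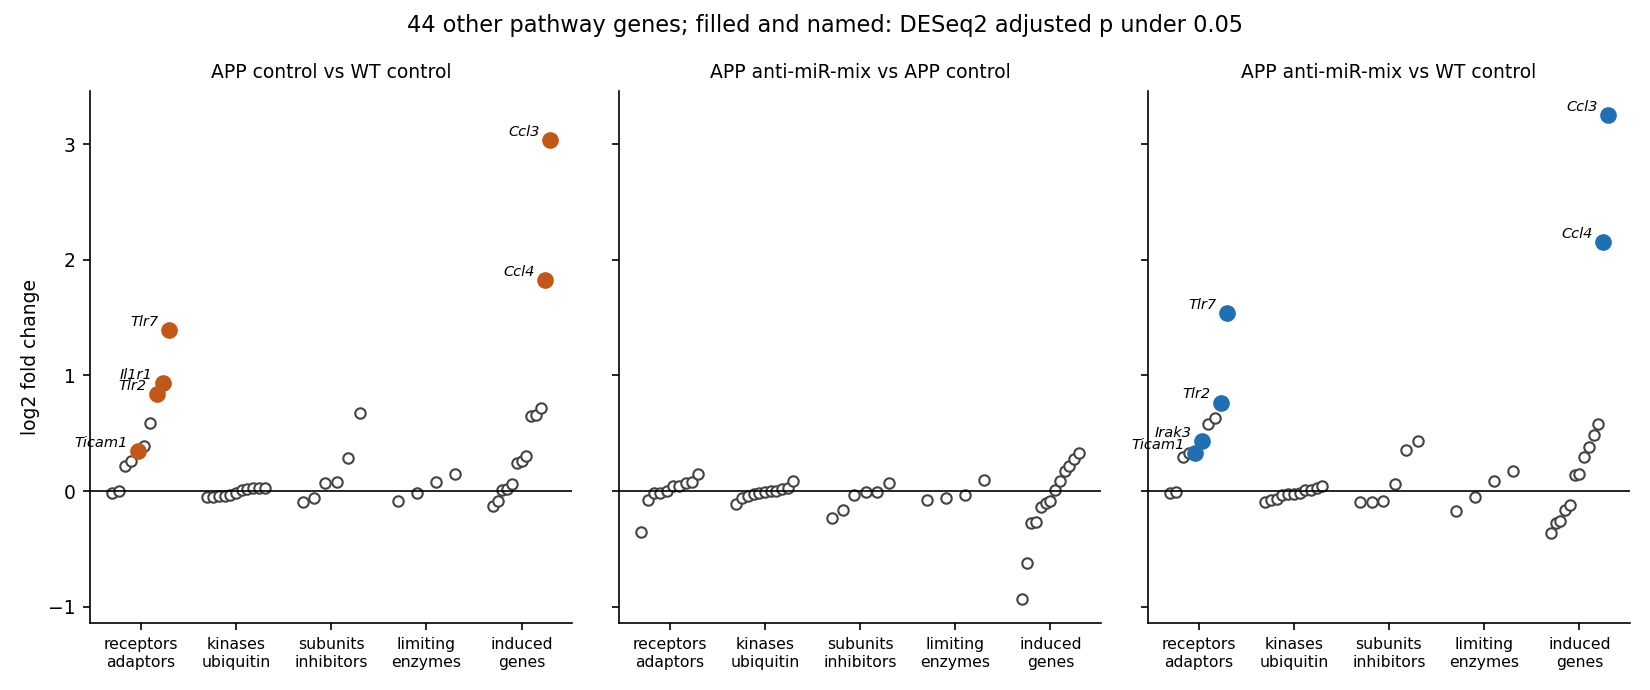
Log2 fold change (vertical axis) of 44 other pathway genes in 5 lists (horizontal axis) for the 3 comparisons, with filled, named points where the DESeq2 adjusted p was under 0.05. Filled points are confined in this plot to receptors and adaptors and to induced genes in the 2 comparisons against WT control (6 in each), and the panel of the mix group against APP control has none.

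Of the reported targets of miR-146a outside the circuit, Numb, a regulator of Notch signalling, was called in the mix group against WT control (log2 fold change 0.15, adjusted p = 0.011, lost without WT control library 4 at 0.0579) and did not pass the test in APP control (0.096, adjusted p = 0.285). Notch1 and Card10 were not called in any comparison. With the inhibitors the log2 fold changes of Numb, Notch1 and Card10 were 0.053, 0.040 and 0.091, each with an adjusted p of 1.0.

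The study's list of 294 predicted miR-146a-5p targets, which includes Irak1, Irak2 and Traf6, had 262 tested genes. Of those, 10 were called in APP control against WT control (8 higher, 2 lower), 0 with the inhibitors and 33 in the mix group against WT control (16 higher, 17 lower), or 3.82%, 0.0% and 12.6% beside 5.0%, 0.0% and 9.51% of all genes. The list's median log2 fold change was -0.042, -0.0049 and -0.036. Among the genes of the list with the smallest adjusted p in both comparisons against WT control were Fcgr2b and Lrrk1. Fcgr2b, an inhibitory antibody receptor of myeloid cells, had 239 ± 91.5, 761 ± 217 and 718 ± 196 normalized counts in WT control, APP control and the mix group, and the kinase gene Lrrk1 had 166 ± 35.4, 262 ± 34.0 and 305 ± 31.4. Fcgr2b differed by a log2 fold change of -0.083 with the inhibitors and Lrrk1 by 0.22, each with an adjusted p of 1.0.

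Over all tested genes with an annotated 3′ UTR, the fold change with the inhibitors was read by the number of seed matches. The median log2 fold change of the mix group over APP control was -0.0033 in 12254 genes with no match, 0.0015 in 2440 with 7mer matches only, 0.0034 in 691 with at least 1 8mer and 0.016 in 175 with at least 3 matches, the class that holds Irak1, Traf6 and Irak2. In the same order 47.9%, 51.1%, 53.0% and 60.0% of the genes had a positive value. In APP control against WT control the order was the reverse, with 47.0%, 38.1%, 37.6% and 25.7% positive. APP control enters both comparisons, so these 2 gradients are not independent. In the mix group against WT control the shares were 46.0%, 40.0%, 39.7% and 30.9%. The median length of the 3′ UTR also rose over these classes, from 924 to 2394, 2736 and 5344 bases. Among genes with a 3′ UTR of over 2000 bases the median was 0.0046 in 2622 genes with no match and 0.0062 in 1929 with a match, and 53.0% and 54.4% were positive. These values are descriptions with no test. Irak1, Traf6 and Irak2 had -0.031, 0.0091 and 0.055 on the same scale.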

How the data were processed

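Polyadenylated CA1 RNA was sequenced as single-end 50-nt reads in 19 libraries. The authors aligned reads to mm10 with STAR (2.5.2b), counted them with featureCounts (Subread 1.5.1) and deposited raw counts per Ensembl gene, and quality was checked with FastQC (0.11.5). The annotation release and strand setting were not given in the sources used here. The authors also deposited a normalized log2 table of 18825 genes, which equals log2(CPM + 1) minus a slope per gene times a whole number from 1 to 5 per library, called the adjustment number here, whose meaning was not stated. It served only as an alternative.

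Symbols came from GENCODE M21 (48349 identifiers matched). Genes that reached 5 counts in 50% of libraries or more were tested with DESeq2 (1.42.0), the study's tool and filter, fitting the 3 groups jointly, with Wald tests, fold changes without shrinkage and Benjamini-Hochberg adjustment over all genes (threshold 0.05). Normalized counts are counts divided by DESeq2 size factors. Adjusted p-values that DESeq2 left undefined stayed undefined. Alternatives were edgeR (4.0.16), TMM size factors, no low-count filter, 2-group fits, a replicate block, the adjustment number as a factor, limma (3.58.1) on the deposited log2 values and leaving out each library in turn. The 8 alternatives cited exclude the left-out single libraries and include leaving out WT control libraries 1 and 5 together, chosen after the data were seen. The script was tested on simulated data. Exact permutation tests were two-sided on mean log2(normalized count + 1). Correlations used 100000 permutations of values with group means subtracted, chosen after the data were examined. No pair of replicates was alike within sampling noise (lowest chi-square per gene 4.6).

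The 9 genes and all gene lists were chosen with earlier results of these data known. In the pathway lists every called gene was to be named, up to 4 per list by smallest adjusted p, all reported targets outside the circuit, the 3 predicted targets with the smallest adjusted p, and the 3 genes most like each of the 4 targets. Python (3.11.15), numpy (2.4.6), scipy (1.17.1) and R (4.3.3) were used. Some genes that this rule names are not reported here.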

Additional observations from a re-analysis of the deposited data

Results flagged for a closer look

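In 27 combinations of gene and group, 2 libraries lay further from the others than Dixon's 95% critical value allows. Chance flags about 1 in 20 groups, or 1.35 of 27. Irak1 had 2000.0 normalized counts in mix library 7, against 2156 to 2234 in the other 6 libraries of that group. Irak4 had 110.9 normalized counts in WT control library 1, against 70.84 to 83.28 in the other 5. The summed microglial markers of these 2 libraries were 29720, the lowest of the mix group, and 23650, the highest of WT control, and their part in the 2 values was not tested.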

How the results depend on the processing

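Between the mix group and APP control the number of all genes called was 0 to 3 without single libraries, 3 in the 2-group fit and 1 without WT control libraries 1 and 5, an alternative chosen after seeing the data. Of the 9 circuit genes, the number called in APP control over WT control was 0 with edgeR, in the 2-group fit and after adding the adjustment number as a factor, 2 in the deposited log2 table, 3 without WT control libraries 1 and 5, and 0 to 3 without single libraries (3 without WT control library 1 or APP control library 6). Other pathway genes called ranged from 4 to 10 in APP control (10 without WT control library 1) and from 3 to 10 in the mix group (10 without WT control library 1, 3 without library 6) against WT control without single libraries. Predicted targets called were 6 with edgeR in APP control and 21 in the mix group against WT control, and ranged from 5 (without WT control library 4) to 20 (without library 1) and from 19 (without WT control library 4) to 37 without single libraries. In APP control they also moved to 6 without WT control library 6 or APP control library 3 and to 19 without APP control library 6. The number of all genes called moved in these fits as well. Without single libraries it was 666 to 1209 in APP control and 1169 to 2012 in the mix group against WT control, both highest without WT control library 1. Without WT control library 4 it was 759 and 1207, and with edgeR 621 and 1169, beside 908 and 1727 in the main fit. The cause was not tested. Of the calls in the mix group against WT control 62.4% were higher, with a range over the 8 alternatives from 55.8% (replicate block) to 76.0% (deposited table), and in APP control 77.8%, from 65.6% (replicate block) to 86.5% (edgeR).

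Signs turned only for differences within 0.05 of 0 on the log2 scale. Without WT control libraries 1 and 5 Traf6 had 0.0011 in APP control and 0.011 in the mix group against WT control, and Nfkbia had 0.087 in the latter. In the deposited table Traf6 had 0.00019 and Nfkbia 0.041 in the mix group against WT control, and Nfkbia had 0.0064 with edgeR and 0.0073 with TMM size factors. Without single libraries Nfkbia ranged from -0.075 to 0.065 there, Irak2 from -0.0032 to 0.064 in APP control against WT control, and between the APPPS1-21 groups Traf6 from -0.014 to 0.031, Nfkb1 from -0.013 to 0.048 and Rela from -0.044 to 0.021.

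Same-numbered libraries of 2 groups correlated from -0.125 to 0.347 after group means were subtracted, with 10 of 18 over 0.1 and 4 of 18 best with their own number. Since not every pair was over 0.1, the numbers were not taken to pair the mice, a rule that cannot show same-numbered libraries to be unrelated. The adjustment number rose or stayed level with the replicate number in each group, and shared processing by number was not tested. With the replicate number as a block, 1222, 1 and 2202 genes were called in the 3 comparisons, beside 908, 0 and 1727 without it. The block also gave calls for 12 other pathway genes in the mix group and 18 predicted targets in APP control against WT control. With it Rela had 0.021 between the APPPS1-21 groups and Nfkbia 0.038 in the mix group against WT control.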
